A study of Caenorhabditis elegans with 4 samples.

Results

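ELT-3 peaks on chromosome V of Caenorhabditis elegans embryos are described here. They are the 640 entries of the combined ChIP-seq peak list that lie on V, out of 3936 peaks in all. The peaks were taken by chromosome alone, with no measured value of a peak, but earlier results of these data were known when the chromosome was chosen. The 2 ChIP samples and the 2 input samples came from embryos of strain OP75, from mixed males and hermaphrodites grown at 20 °C. Animals in every sample carried the unc-119 (ed3) allele on III and the integrated transgene wgIs75, which holds elt-3::TY1::EGFP::FLAG and a working unc-119 (+) copy. The transgene was introduced by bombardment and encodes a tagged ELT-3 in addition to the worm's own elt-3 gene. The antibody recognises GFP, so the tagged protein was collected from whole embryos and the peaks cannot be assigned to a cell type. The grouping follows the sample titles, since the description fields call the ChIP samples input and name the antibody for the input samples.

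ELT-3 belongs to the GATA family of zinc finger transcription factors, which bind short DNA sites around the letters GATA. In the worm embryo it is made in the epidermis (hypodermis), where GATA factors act in sequence to set up epidermal fate and switch on genes of the cuticle and of the skin cells. Chromosome V is the longest worm chromosome. As on other worm autosomes, its central region holds many conserved and broadly expressed genes, while its arms are richer in repeats and in families such as chemoreceptor genes. The positions below are on WormBase build WS180 and are given as start to end. No sequence or annotation of that build was used here, so no gene is named and no DNA sequence is printed.

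Each list gives a position and 1 number per peak, which the files call qValue. All 640 values on V matched exactly 1 pair of tag numbers under the one-sided binomial test that PeakSeq applies. The matched pair is used below as the ChIP tags (reads in the peak from the GFP precipitate) and the scaled control tags, and their quotient is the tag ratio. The deposited number itself is called the peak probability. On V the combined list held 49361 ChIP tags against 17132 control tags, and the replicate 1 list, with 264 peaks on V, held 16300 against 5192. The replicate 2 list also had 640 peaks on V, with 49187 against 17023. Library depth is unknown. Where an interval follows a ratio, it is the 95% exact binomial interval, which treats the scaled control tags as counts and includes no error other than counting. Separate cultures for the 2 ChIP samples are not stated in the labels, and 2 lists give no SD per peak.

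The best-ranked peak on V stood at V 12553222 to 12553744. It had 239 ChIP tags against 40 control tags in the combined list and in replicate 2, a ratio of 5.98 (4.26 to 8.57). In replicate 1 it had 152 against 26 control tags, a ratio of 5.85 (3.84 to 9.24), and it held rank 19 in both the combined and the replicate 1 list. The combined and replicate 2 values are the same numbers here, so only replicate 1 offers a comparison. Its ratio was nearly the same, from fewer tags, and whether the replicate 1 list shares tags with the others is unknown.

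The next 3 peaks were wide and of lower ratio. V 19521631 to 19523093 spanned 1463 bp, with 322 ChIP tags against 86 and a ratio of 3.74 (2.94 to 4.81), while the replicate 1 interval there covered 503 bp with 121 against 32, a ratio of 3.78 (2.54 to 5.77). V 9343303 to 9344624 spanned 1322 bp with a ratio of 3.38 (2.69 to 4.28), and its replicate 1 interval spanned 541 bp with a ratio of 3.59 (2.44 to 5.41). V 7011214 to 7012147 spanned 934 bp with 317 tags against 91 in the combined list, 315 against 90 in replicate 2, and 198 against 60 in replicate 1. Replicate 1 intervals were narrower than the combined ones at all 3 positions, with 902 bp at the last of them, and at all 3 the ratio intervals of the lists overlapped.

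Among the rest of the 20 best-ranked peaks present in both replicate lists, widths and ratios were mixed. Some were narrower than those 3 and had higher ratios. V 11802457 to 11802907 had 175 ChIP tags against 34, a ratio of 5.15 (3.55 to 7.67), and V 8500359 to 8500734 had 162 against 31, a ratio of 5.23 (3.54 to 7.94). In replicate 1 these ratios were 4.57 (2.89 to 7.51) and 5.0 (3.03 to 8.67). Near the right end, V 20849140 to 20849523 had a ratio of 5.44 (3.53 to 8.70), against 5.62 (3.28 to 10.3) in replicate 1. The highest of the 20 ratios was 7.85 (4.39 to 15.2) at V 19642994 to 19643333, from 102 ChIP tags against 13, and in replicate 1 it was 6.62 (3.13 to 16.1) from 53 against 8. The lowest was 3.05 (2.34 to 4.04) at V 12303351 to 12304057, where replicate 1 gave 3.81 (2.54 to 5.85).

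The other positions among the 20 were V 12354193 to 12355034, V 6227275 to 6228171, V 19528904 to 19529528, V 11313995 to 11314422, V 3979619 to 3980431, V 4131456 to 4132011, V 6246323 to 6246943, V 10940262 to 10941029, V 4698651 to 4699336, V 8040275 to 8041150 and V 10087123 to 10087493. Their combined ratios lay within the range already given. Over all 20 the width ran between 340 and 1463 bp and the ChIP tags between 102 and 331. Replicate 1 had the higher ratio at 8 positions and the lower at 12, and the ratio intervals overlapped at all 20. Ranks in replicate 1 ran between 19 and 220. In replicate 2, 15 of the 20 had the same tag numbers as in the combined list. Of the 20, 11 lay between V 6968824 and V 13937647, the central of 3 equal lengths of V. That stretch held 43.8% of all combined peaks on V, and whether the 20 differ from this share was not tested.

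**Figure D1:**
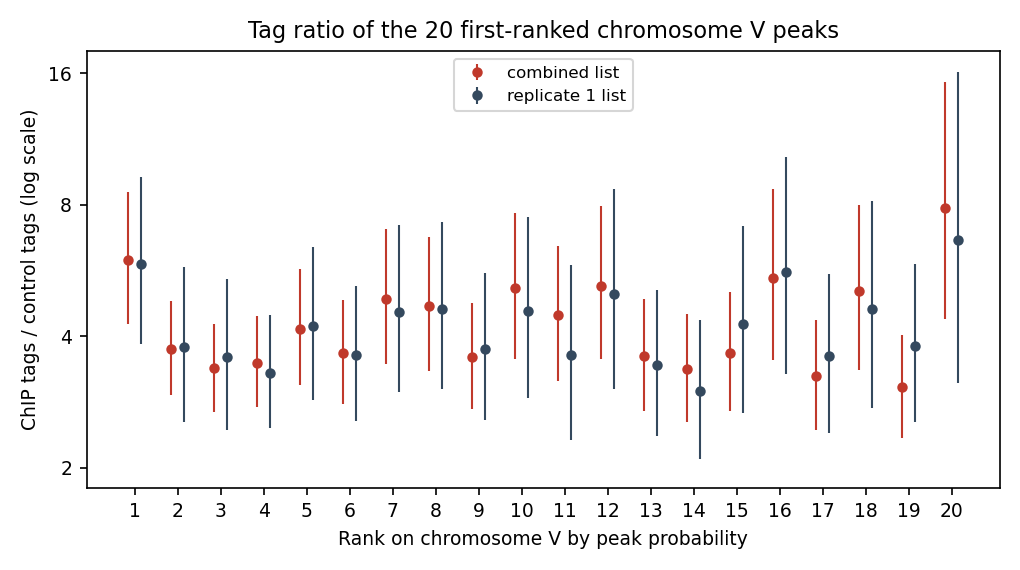
Tag ratio (ChIP tags over scaled control tags, log scale) of the 20 best-ranked chromosome V peaks present in both replicate lists, in the combined list (red) and in the replicate 1 list (dark blue), in order of peak probability on V; bars are 95% exact binomial intervals. The combined ratios lie between 3.05 and 7.85, and the intervals of the lists overlap at all 20 positions. Whether the lists share tags is unknown.

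By ratio instead of probability, smaller peaks came first. Among V peaks with 50 or more ChIP tags, V 18371617 to 18371891 had a ratio of 6.5 (3.32 to 14.2), V 1003896 to 1004116 one of 6.22 (3.05 to 14.3) and V 12728350 to 12728539 one of 6.00 (2.94 to 13.8), beside the peaks at V 19642994 to 19643333 and V 12553222 to 12553744 given above. Replicate 1 had ratios of 6.14, 5.33 and 6.5 at these 3 positions. Only 54 to 65 ChIP tags and 9 or 10 control tags stand behind these ratios, and their intervals are wide. By width, the remaining first 5 were V 20773484 to 20774508, with a ratio of 2.88 (2.22 to 3.79), and V 18719510 to 18720537. At V 18719510 the peak spanned 1028 bp with 158 ChIP tags against 90, a ratio of 1.76 (1.35 to 2.30), and had no replicate 1 partner.

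The median peak was 254.5 bp wide, with 66 ChIP tags against 23 control tags and a tag ratio of 2.90 (quartiles 2.50 and 3.54). For II, III, IV and X the median ratios were 2.85, 3.00, 3.00 and 2.68, and the median widths were 272, 252.5, 265 and 293 bp. V was thus inside the range of these chromosomes in both. In replicate 1 the median V ratio was 3.32, against 3.31, 3.39, 3.39 and 2.96 on II, III, IV and X. The median control density inside peaks was 92.3 tags per kb on V, against 93.6, 93.9, 89.5 and 103 on II, III, IV and X.

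Peaks with more tags were found again more often. Of the 142 V peaks with under 50 ChIP tags, 12 (8.45%) overlapped a peak in both replicate lists, of the 361 with 50 to 99 tags 135 (37.4%) did, and of the 137 with 100 or more tags 110 (80.3%) did. Median ratios in these classes were 3.40, 2.76 and 2.82. Peak probabilities on V ended at 0.000321, so a peak with few tags was listed only if its ratio was high. The high median of the class with the fewest tags is therefore not given as a property of these peaks. The lowest ratios in the classes were 2.45, 1.87 and 1.68. The 257 V peaks found in both lists had medians of 337 bp and 91 ChIP tags and a ratio of 3.23, against 217 bp, 56 tags and 2.75 for the 383 others. Every V peak with a replicate 1 partner also had a replicate 2 partner, so being found in both lists came down to replicate 1. At these pairs replicate 1 held a median of 0.614 times the ChIP tags, and its peak probabilities on V ended at 0.000197. A peak with few tags could thus reach the replicate 1 list less easily, and a wider peak is also easier to overlap. The differences are therefore given without a test.

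**Figure D2:**
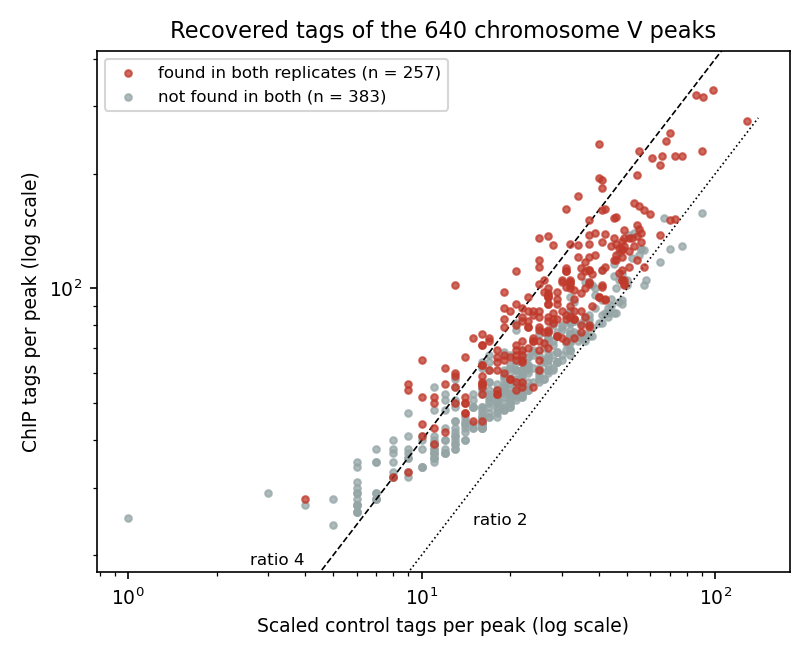
ChIP tags against scaled control tags (both log scales) of the 640 chromosome V peaks, each point 1 peak; red points overlap a peak in both replicate lists and grey points do not; lines mark tag ratios of 2 and 4. Red points dominate above 100 ChIP tags, where 80.3% of peaks are found in both lists.

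The first comparison asked how densely ELT-3 peaks cover V. V had 30.6 peaks per Mb over an extent of 20.9 Mb, fewer per Mb than II with 42.6, III with 49.0, IV with 35.4 and X with 37.8. The density on V was 0.719 times that on II (95% exact interval 0.644 to 0.803), 0.624 times that on III (0.560 to 0.697), 0.866 times that on IV (0.774 to 0.969) and 0.811 times that on X (0.726 to 0.905). All 4 differences passed an exact conditional binomial test (two-sided, Benjamini-Hochberg over 4: adjusted p = 7.1e-09 for II, 7.72e-17 for III, 0.0108 for IV and 0.000212 for X). Replicate 1 alone gave 12.6 peaks per Mb on V, against 19.1, 21.3, 15.2 and 16.7 on II, III, IV and X. The peaks covered 9.05 bp per kb of V, against 13.4, 14.0, 10.5 and 13.5 bp on II, III, IV and X. The difference from IV ended with peaks of 50 bp or more (adjusted p = 0.0549), with the better-scoring 50% of the list (0.0965) and with peaks found in both replicates (0.0748, exact conditional binomial tests). Neighbouring peaks are not independent, so this and every test over peaks below gives p-values that are too small.

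The peaks were unevenly spread along V. Each chromosome was divided into 3 equal lengths, called left, central and right here. The central length of V, V 6968824 to 13937647, held 280 of the 640 peaks (43.8%, Wilson interval 40.0 to 47.6), against 39.8% of all peaks in the series. The left length held 199 (31.1%) and the right length 161 (25.2%). Per Mb this made 28.6 peaks in the left, 40.2 in the central and 23.1 in the right length of V. For II, III, IV and X, left lengths had 31.3, 42.3, 35.8 and 37.5 per Mb, central ones had 49.7, 57.2, 42.2 and 38.3, and right ones had 46.8, 47.6, 28.1 and 37.5. V thus had a higher value than X in the central length, and in both outer lengths the lowest value of these 5 chromosomes. Replicate 1 gave 80, 121 and 63 peaks in the left, central and right lengths of V.

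The central share on V was higher than on II, III, IV and X together, 43.8% against 37.8%, a difference of 5.94 percentage points (1.71 to 10.2; Fisher's exact test, two-sided, adjusted p = 0.0361 over 6 measures). Peaks found in both replicates gave 45.9% against 36.1%, and replicate 1 alone 45.8% against 36.3%. Against X, with 33.8%, the difference was 9.92 points (4.64 to 15.1) and passed (Fisher's exact test, adjusted p = 0.00165 over 6 measures). Against II, III and IV, with 39.2%, it was 4.57 points (0.193 to 9.0), which did not pass (Fisher's exact test, adjusted p = 0.137 over 6 measures). In both adjustments the other measures stayed compared with II, III, IV and X together. Taken singly, II, III and IV gave differences that did not pass (adjusted p = 0.218, 0.218 and 0.339 over 30 comparisons of the 6 measures, Fisher's exact tests). Over the same 30, the adjusted p was 0.00413 for X and 0.171 for II, III and IV together (Fisher's exact tests). Chromosome I, which was left out of these comparisons, had a central share of 43.6% (300 of 688), close to that of V. The control density in peaks moved with position, with medians of 89.6, 98.1 and 86.5 control tags per kb in the left, central and right lengths of V, and its part in the result was not tested.

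**Figure D3:**
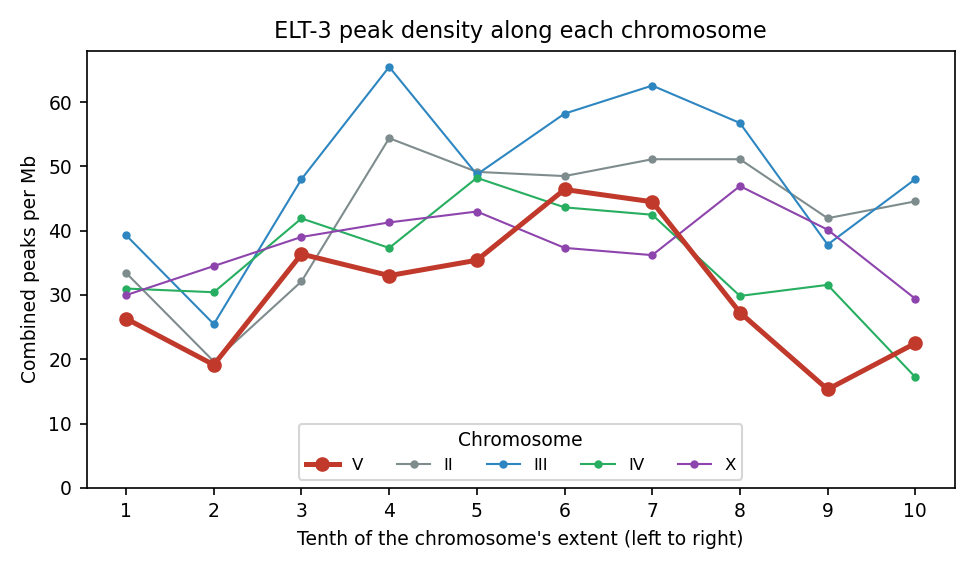
Combined peaks per Mb in 10 equal stretches of the chromosome's extent, left to right, for V (thick red line) and for II, III, IV and X (thin lines). On V the values run between 15.3 per Mb in stretch 9 and 46.4 per Mb in stretch 6.

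In steps of 1 Mb, the fullest part of V lay at 11 to 12 Mb with 51 peaks, and 20 of these overlapped a peak in both replicate lists. The steps at 6 to 7 Mb with 50, 13 to 14 Mb with 49 and 12 to 13 Mb with 45 came next. The emptiest was 17 to 18 Mb with 11 peaks, 5 of them so supported, followed by 19 to 20 Mb with 14. The replicate 1 list had 20 peaks at 11 to 12 Mb, 5 at 17 to 18 Mb and 4 at 19 to 20 Mb. The 14 peaks at 19 to 20 Mb had a median ratio of 3.64, the highest of any step, and included 3 of the 20 named positions. Their median width was 200 bp, and 4 of the 14 were found in both replicates. Since a peak with few tags was listed only if its ratio was high, this median is not given as a property of the region. The median control density at 19 to 20 Mb was 70.1 tags per kb. It was 101 tags per kb at 11 to 12 Mb, where the median ratio was 3.03.

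Peaks on V were less often close together. Of 639 gaps between neighbouring midpoints on V, 63 (9.86%) were 2 kb or less, against 353 of 2604 (13.6%) on II, III, IV and X and 12.9% over the whole series. The difference of -3.70 percentage points (-6.18 to -0.846) passed Fisher's exact test (two-sided, adjusted p = 0.0361). Shares on single chromosomes were 16.2% for II, 15.2% for III, 11.7% for IV and 11.1% for X. With p-values adjusted over 30 comparisons with single chromosomes and with II, III and IV together, V differed from II (0.00896) and III (0.0271) and the differences from IV (0.554) and X (0.615) did not pass (Fisher's exact tests). The call ended with the replicate 2 list alone (adjusted p = 0.0507), the replicate 1 list alone (0.0896), the better-scoring 50% (0.645) and a limit of 5 kb (0.359, Fisher's exact tests). The median gap was 17995 bp on V, against 11524, 11059, 17355 and 16533 bp for II, III, IV and X. The density was lower on V too, and its part in the spacing was not tested.

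For wide peaks, high ratios and high ranks, no difference between V and II, III, IV and X together passed the test. Peaks of 500 bp or more made up 67 of 640 on V (10.5%), against 12.8% on those chromosomes and 13.1% in the series, a difference of -2.34 points (-4.86 to 0.549; adjusted p = 0.246, Fisher's exact test). The share on X was 18.1%, and V differed from X by -7.65 points (adjusted p = 0.00235 over the 30 comparisons, Fisher's exact test). A tag ratio of 4 or more was reached by 98 V peaks (15.3%), against 17.3% elsewhere and 15.5% in the series, a difference of -1.98 points (-4.97 to 1.33; adjusted p = 0.359, Fisher's exact test). The share on V lay below the 19.0% of II, III and IV and above the 12.3% of X, with differences of -3.71 points (-6.86 to -0.271; adjusted p = 0.163 over the 30 comparisons) and 3.04 points (-0.704 to 6.8; adjusted p = 0.272, Fisher's exact tests). In the replicate 1 list alone 27.3% of V peaks reached a ratio of 4, against 28.1% on II, III, IV and X. The best-ranked 20% of the series held 122 V peaks (19.1%), against 20.0% both on those chromosomes and in the series, a difference of -0.953 points (-4.22 to 2.6; adjusted p = 0.619, Fisher's exact test). V had 13 of the first 100 ranks and 64 of the first 500, against 22, 16, 8 and 27 of the first 100 and 79, 87, 66 and 104 of the first 500 on II, III, IV and X. V held 16.3% of all peaks. With the replicate 1 list alone, the share of wide peaks passed (9.85% against 15.2%, adjusted p = 0.0488, Fisher's exact test). Wide peaks in that list were not compared with X or with II, III and IV separately.

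**Figure D4:**
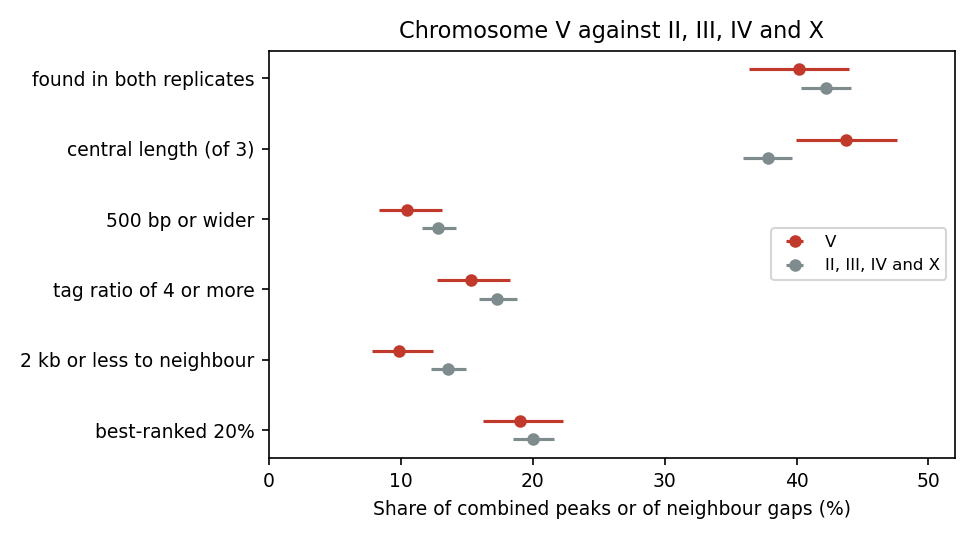
Share of combined peaks (for spacing, of gaps between neighbouring midpoints) with each of 6 properties on V (red) and on II, III, IV and X together (grey); bars are 95% Wilson intervals. V lies higher for the central length, 43.8% against 37.8%, and lower for close neighbours, 9.86% against 13.6%.

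The replicate lists were then compared on V. Of the 640 combined peaks, 257 (40.2%, Wilson interval 36.4 to 44.0) overlapped a peak in both replicate lists by at least 1 bp, against 42.3% on II, III, IV and X and 40.9% in the series. The difference of -2.10 points (-6.29 to 2.18) did not pass Fisher's exact test (adjusted p = 0.417). Another 373 overlapped a replicate 2 peak only and 10 overlapped neither list. In the other direction 257 of the 264 replicate 1 peaks on V (97.3%) overlapped a replicate 2 peak, against 97.8% in the series, and 257 of 640 replicate 2 peaks (40.2%) overlapped a replicate 1 peak, against 40.9% in the series. Whether the 2 lists share tags is unknown, so this overlap is not given as agreement of independent samples.

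Replicate support on V, which came down to a replicate 1 partner, followed rank. Rank goes by peak probability, which depends on tag number, and replicate 1 held fewer tags. The part of tag number in this trend was not tested. The whole combined list was divided by rank into 5 equal groups. In the best group 118 of 122 V peaks (96.7%) were found in both replicates, then 63.3% of 120, 31.6% of 133, 12.8% of 133 and 3.03% of 132. On II, III, IV and X the shares were 97.9%, 66.5%, 32.2%, 10.8% and 4.79%, each with an interval that overlapped that on V. The 5 best-ranked V peaks without a replicate 1 partner were V 19622080 to 19623009, V 9095598 to 9096217, V 9582971 to 9583252, V 12298457 to 12299034 and V 10715488 to 10716376. They ranked between 557 and 796 in the combined list and had ratios of 2.71, 2.64, 3.86, 2.64 and 2.28. All 5 had the same tag numbers in replicate 2.

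**Figure D5:**
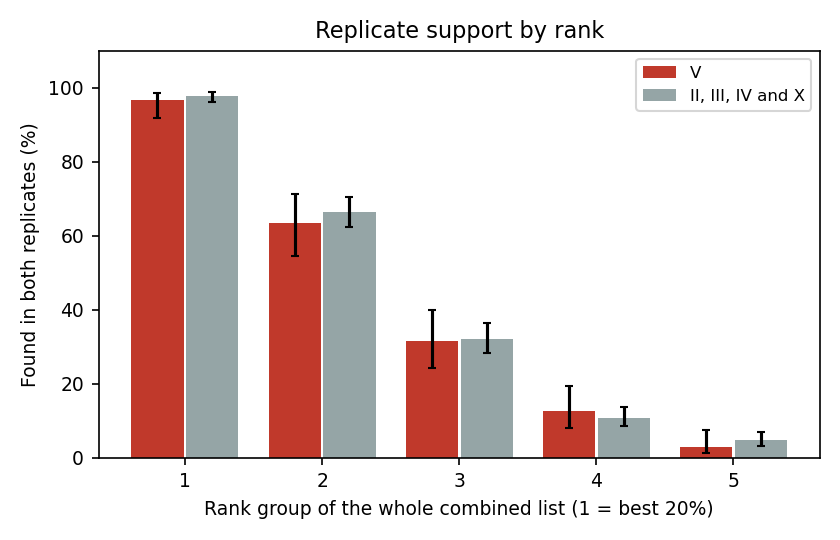
Share of combined peaks found in both replicate lists, by 5 equal groups of the whole list in order of rank, on V (red, left bars) and on II, III, IV and X (grey, right bars), with 95% Wilson intervals. The share on V is 96.7% in the best group and 3.03% in the last.

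Where both lists had a V peak, the positions were close. The midpoints of the combined peak and of its replicate 1 partner lay a median of 13 bp apart, and 218 of 257 (84.8%) lay within 50 bp. Replicate 1 intervals had a median of 0.861 times the width, 0.614 times the ChIP tags and 0.625 times the control tags of their combined partners. ChIP and scaled control tags were thus lower by about the same factor. How the control was scaled in each list is not stated, so this is not read as a property of the samples. The ratio was higher in replicate 1 at 149 pairs and lower at 105. Replicate 1 held more ChIP tags at 2 of the 257 pairs and was wider at 25.

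Against replicate 2, the combined list on V fell into whole 1 Mb segments that were either identical or shifted throughout. In 14 of the 21 segments all 467 combined peaks had the same start and end as a replicate 2 peak. In the other 7 segments 2 of 173 peaks did. All 469 identical intervals had identical tag numbers. In the segments at 0 to 1, 2 to 3, 16 to 17 and 19 to 20 Mb all 80 overlapping combined peaks were narrower than their replicate 2 partners, with median width differences of -10.5, -10, -9 and -8.5 bp. In those at 3 to 4, 6 to 7 and 7 to 8 Mb, 81 were wider and none was narrower, with median differences of 12, 13 and 11 bp. On II, III, IV and X each segment was likewise either identical or had at most 15.8% identical intervals, with 11, 11, 12 and 12 identical segments against 5, 3, 6 and 6. This pattern was found after the values were seen. The combined list on V held 49361 ChIP tags, against 49187 in replicate 2 and 16300 in replicate 1. The combined and replicate 2 values on V are thus largely the same numbers, also where a replicate 1 partner exists, and how the combined list relates to the replicate 1 tags is not stated.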

How the data were processed

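Per the file headers, the 3 deposited peak lists (1 for each of the 2 ChIP samples, 1 combined) are on WormBase WS180, and their source column names PeakSeq. Per the labels' protocols, embryos were crosslinked with 2% formaldehyde and 10% of each lysate was kept as input. For the aligner, the settings of the caller and the making of the combined list, nothing is stated in the sources used here. The authors deposited 1 value per peak, named qValue, which was read as a p-value: an unadjusted one-sided binomial tail with probability 0.5. Totals of up to 3000 tags (20000 for a value then left) were searched with a relative tolerance of 1e-11, and all values in the 3 lists matched 1 pair. Known pairs and shifted intervals were recovered in a test on simulated data.

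Overlap means at least 1 bp. The extent of a chromosome is the highest peak end in any list, and midpoints place peaks in its 3 equal lengths. Shares on V were compared with those on II, III, IV and X by Fisher's exact test and densities by an exact conditional binomial test, with Benjamini-Hochberg adjustment at 0.05. Positions named are the 20 best V peaks found in both replicates, the 5 highest ratios with 50 or more ChIP tags, the 5 widest, up to 5 without a partner in the other list, the first and last on V, the 3 densest 20 kb windows and the 3 longest gaps. The chromosome, measures and thresholds were chosen with earlier results of these data known. Densities on single chromosomes and the central share against X and against II, III and IV were planned. The other share comparisons with single chromosomes or with II, III and IV, those restricted to peaks found in both replicates, and those of 1 Mb segments and by tag class were added after these values were seen. A gene table for assembly WBcel235 was not used, because the build differs. The tools were scipy 1.17.1, statsmodels 0.14.6, pandas 2.3.3, numpy 2.4.6 and matplotlib 3.10.9 under Python 3.11.15.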

Additional observations from a re-analysis of the deposited data

How the results depend on the processing

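Over 64 recomputed values, 54 had the same direction and stayed on their side of the threshold. The share found in both replicates turned to a difference of 1.38 points with the better-scoring 50% of each list (adjusted p = 0.657, Fisher's exact test). Close neighbours missed the threshold with the better-scoring 50% (-0.972 points), with 5 kb (-2.64) and without replicate 1 or 2 (-4.03 to -3.55). The central share missed it against II, III and IV (4.57 points). The density ratio to IV missed it with peaks of 50 bp or more (0.894), the better-scoring 50% (0.872) and peaks found in both replicates (0.853). Wide peaks passed without replicate 2, and the values without replicate 1 or 2 ran from -5.35 to -2.96 points. The better-scoring 50%, the peaks found in both replicates and the replicate 1 list hold fewer peaks. The 5 kb limit used all gaps, and 617 of the 640 V peaks spanned 50 bp or more. The causes of these changes were not tested. The density ratios to II, III and X ran from 0.589 to 0.823 over all alternatives and passed in each (exact conditional binomial test). Leaving out replicate 1 uses the replicate 2 list, whose numbers on V are largely those of the combined list. The share found in both replicates cannot be computed without a replicate. No paired analysis was possible because no peak list exists here for either input sample. Library depth is unknown, so no detection limit can be given.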

Other observations

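Close groups of peaks on V were small. Of the runs in which each midpoint lay within 2 kb of the next, 39 held 2 peaks, 7 held 3, 2 held 4 and 1 held 5. The run of 5 began at V 12349395 and ended at V 12355034, with a peak of 842 bp and a ratio of 4.16 at its right end and ratios of 2.63 to 3.78 in the other 4, and 2 of the 5 were found in both replicates. The densest 20 kb windows held 6 peaks each, at V 2122715 to 2140162, V 8026461 to 8045520 and V 12291716 to 12310634, with 1, 4 and 2 peaks found in both replicates.

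The longest stretches without a peak lay at V 17395576 to 17776238, with 380661 bp free, at V 2281844 to 2623863, with 342018 bp, and at V 19718510 to 20000956, with 282445 bp. The first peak on V was at V 8160 to 8330, with a ratio of 2.87 (1.56 to 5.56), and overlapped no replicate peak. The last was at V 20906422 to 20906471, with a ratio of 9.67 (3.00 to 49.6) from 29 ChIP tags against 3. It spanned 50 bp, ranked 1632 in the combined list and had no replicate 1 partner. Its end is also the extent of V used for the density and the 3 equal lengths.

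Of the 10 combined peaks on V that overlapped neither replicate list, 8 lay below 4 Mb. All 10 had midpoints in the 7 segments where the combined intervals were shifted against replicate 2. In an identical segment every combined peak has a replicate 2 partner. Of the 173 combined peaks in the shifted segments, 26, 23 and 17 lay at 0 to 1, 2 to 3 and 3 to 4 Mb. The replicate 2 list had 10 V peaks absent from the combined list, 5 of them between 6 and 7 Mb. That segment held 54 replicate 2 peaks, the most of the 7 shifted segments. All of these positions were singled out after their values were seen.

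On V 23 combined peaks spanned under 50 bp, with a median ratio of 4.50 from 28 ChIP tags against 6, and 3 of the 23 had support in both lists, while 41.2% of the 617 others did. A peak with so few tags was listed only if its ratio was high. The highest ratio of any V peak, 25 (4.09 to 1026), came from 25 ChIP tags against 1 at V 2033287 to 2033307, a position of 21 bp with no replicate 1 partner, named after its value was seen. The overlapping replicate 2 peak, V 2033281 to 2033322, had 26 tags against 4, a ratio of 6.5 (2.26 to 25.6), and the highest ratio of any V peak in that list was 9.67.

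The replicate 1 list had 7 V peaks with no replicate 2 partner, and none was in the combined list. The 5 best-ranked were V 14524379 to 14524427, with a ratio of 12.5 (3.12 to 109) from 25 ChIP tags against 2, V 5284008 to 5285458, V 2260685 to 2261110 with 2.46 (1.51 to 4.13), V 13345730 to 13345811 with 4.67 (1.90 to 13.8) and V 10450548 to 10450575 with 5.75 (1.96 to 22.9). The peak at V 5284008 to 5285458 differed from the other 4 in kind. It spanned 1451 bp and held 362 ChIP tags against 265 control tags, the most of both on V in that list, and its ratio of 1.37 (1.16 to 1.61) was the lowest there.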
